A study of Homo sapiens with 3 samples.

Results

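The ovarian cancer line ES-2 was compared with the thyroid cancer line C643 and the liver cancer line Huh-7 by the miRNAs whose abundance set it apart from both. A miRNA was included when its share of all miRNA reads in ES-2 was at least 4 times, or at most 25% of, its share in each of the other lines, with at least 100 deposited units in 1 library. This gave 34 miRNAs of 212 that reached 100 units and of 2588 listed in all: 7 were higher in ES-2 (3.30% of the 212) and 27 were lower (12.7%). The rule used these shares, so they are given as a description, without a test between lines.

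All 3 lines were parental cells, that is, before any deletion of MIR21, grown in DMEM with 10% serum and harvested 48 h after seeding. ES-2 is an established line from an ovarian carcinoma. Huh-7 was derived from a hepatocellular carcinoma, C643 from an anaplastic thyroid carcinoma. Each line was sequenced once, from 50 ng of total RNA, so no difference between lines has a replicate check, and line and library cannot be told apart. For small RNA libraries the paper names a kit or a service company, and sequencing at either of their sites, without assigning the lines. Any difference in handling between C643, which was deposited apart, and the other lines cannot be told apart from line. Intervals given below are 95% intervals of the read counts (Wilson for shares, exact for ratios) and cover counting error only.

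MicroRNAs are short RNAs cut from hairpin precursors, each of which can release a product from its 5p and its 3p arm. Bound to Argonaute proteins, they repress mRNAs that pair with the seed, bases 2 to 8 of the miRNA, so miRNAs with the same seed share many targets. Many miRNAs are made mostly in 1 tissue, such as miR-122 in liver and miR-142 in blood cells, and neighbouring hairpins are often cut from 1 transcript.

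ES-2 was the shallowest library, with 1663181 reads on miRNAs, against 2173587 for Huh-7 and 8183100 for C643. Where 3 values below carry no line names, they are those of C643, ES-2 and Huh-7 in this order. The floor of 3 reads, used below where a miRNA had none, equals 3.67e-05%, 0.00018% and 0.000138% of the reads, and the Wilson upper bound at 0 reads was 4.69e-05%, 0.000231% and 0.000177%. miR-21-5p, the miRNA for which the lines were profiled, was no member and held 28.6%, 28.2% and 33.3%. By the same rule 34 of the 212 miRNAs (16.0%) set ES-2 apart, 28 (13.2%) C643, with 10 higher (4.72%) and 18 lower (8.49%), and 90 (42.5%) Huh-7, with 45 in each direction (21.2% each). Over 400 miRNAs read in every library, the median log2 ratio of shares was -0.29 for ES-2 to C643 and -1.02 for ES-2 to Huh-7, so shares in ES-2 lay on balance below those in Huh-7.

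The mature sequences of 31 of the 34 miRNAs were found in RefSeq (GRCh38.p14), and miR-483-3p, miR-483-5p and miR-148a-5p were not among them. The miRNAs higher in ES-2 are shown first, 5′ to 3′ with the seed in capitals, to show that no 2 of them have the same seed, with miR-29a-3p and miR-3689a-5p beside them as the relatives discussed with the results.
miR-31-5p: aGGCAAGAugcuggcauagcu
miR-361-3p: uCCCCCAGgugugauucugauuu
miR-29b-3p: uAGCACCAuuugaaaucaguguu
miR-29a-3p: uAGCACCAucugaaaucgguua
miR-142-3p: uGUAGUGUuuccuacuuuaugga
miR-142-5p: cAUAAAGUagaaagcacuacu
miR-138-5p: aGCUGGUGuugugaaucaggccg
miR-3689f: uGUGAUAUcgugcuuccuggga
miR-3689a-5p: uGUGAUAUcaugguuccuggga

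Among the miRNAs lower in ES-2, members with a close relative of the same seed are shown first, since the comparison turns on which of these ES-2 held, and miR-122-5p, miR-143-3p and miR-214-3p follow as members known from liver and mesenchymal cells. The relatives miR-27a-3p, miR-23a-3p, miR-148b-3p, miR-196b-5p and miR-146b-5p were not members, whereas miR-1269a and miR-1269b both were.
miR-27b-3p: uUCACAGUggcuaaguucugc
miR-27a-3p: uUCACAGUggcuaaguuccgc
miR-23b-3p: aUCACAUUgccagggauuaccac
miR-23a-3p: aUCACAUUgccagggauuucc
miR-148a-3p: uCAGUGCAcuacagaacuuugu
miR-148b-3p: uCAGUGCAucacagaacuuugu
miR-196a-5p: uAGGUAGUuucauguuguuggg
miR-196b-5p: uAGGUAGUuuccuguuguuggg
miR-146a-5p: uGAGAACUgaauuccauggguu
miR-146b-5p: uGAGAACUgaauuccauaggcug
miR-1269a: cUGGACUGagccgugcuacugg
miR-1269b: cUGGACUGagccaugcuacugg
miR-122-5p: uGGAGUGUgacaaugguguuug
miR-143-3p: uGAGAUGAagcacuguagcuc
miR-214-3p: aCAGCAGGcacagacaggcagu

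Counted from 1 at the 5′ end, with the member's base first, miR-27b-3p differs from miR-27a-3p by U19C, miR-23b-3p from miR-23a-3p by A19U over the first 21 bases, miR-196a-5p from miR-196b-5p by A12C and miR-1269a from miR-1269b by G13A. miR-148a-3p differs from miR-148b-3p by C9U and U10C, and miR-146a-5p from miR-146b-5p by G18A and U21C over 22 bases. All of these changes lie outside the seed, so a read is assigned to 1 of the relatives by 1 or 2 bases.

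The 7 miRNAs higher in ES-2 held 0.439% of its reads (95% CI 0.429 to 0.449, 7300 reads), against 0.0191% in C643 (0.0182 to 0.0201, 1562 reads) and 0.000874% in Huh-7 (0.00056 to 0.00137, 19 reads). They were therefore a small part of the miRNA pool of ES-2, and 4574 of these 7300 reads came from miR-31-5p. In Huh-7, 5 of the 7 had no read. The intervals of their ratios to either line lay above 4, which describes counting error in the same reads that the rule used and is no separate support.

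**Figure D1:**
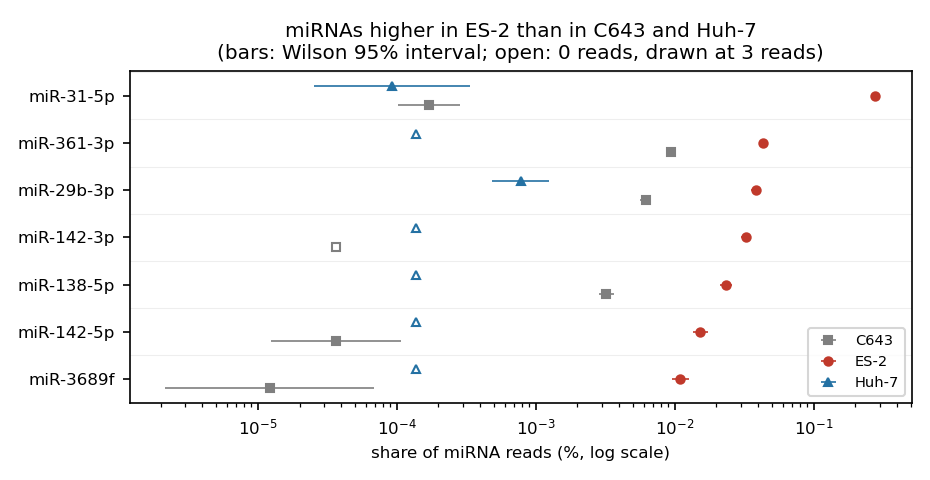
Shares of all miRNA reads (x axis, percent on a log scale) of the 7 miRNAs higher in ES-2, for each of the 3 libraries, with bars for the Wilson 95% interval and open symbols for 0 reads, drawn at the share of 3 reads. The ES-2 point lies to the right of both others in every row, farthest for miR-31-5p and nearest to C643 for miR-361-3p.

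miR-31-5p was the most abundant of them and had the largest measured ratios to both lines. This miRNA is known for its part in the invasion and spread of tumour cells, and its precursor lies at chr9:21512115-21512185 on the minus strand (GRCh38), in an intron of the non-coding gene MIR31HG, near the tumour suppressor gene CDKN2A. It had 4574 reads in ES-2 (0.275%), against 14 in C643 (0.000171%) and 2 in Huh-7 (9.2e-05%), and it ranked 32 among the miRNAs of ES-2, 524 in C643 and 735 in Huh-7. ES-2 held 1607 times the share of C643 (95% CI 957 to 2943) and 2989 times that of Huh-7 (827 to 24687). The other arm, miR-31-3p, which the rule did not use because it stayed below 100 units, had 0, 20 and 0 reads, so both arms were read most in ES-2.

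Both arms of MIR142 were members. The precursor lies at chr17:58331232-58331318 on the minus strand, within an exon of the non-coding gene AC004687.1. miR-142-3p had no read in C643, 542 reads in ES-2 (0.0326%) and no read in Huh-7. Against the floor of 3 reads, ES-2 was 889-fold above C643 and 236-fold above Huh-7, and the exact intervals began at 720 and 191. miR-142-5p had 3, 255 (0.0153%) and 0 reads, 418 times the share of C643 (141 to 2041) and at least 111-fold more than Huh-7. Within ES-2 the 3p arm had 2.13 times the reads of the 5p arm (1.83 to 2.48).

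miR-142 is abundant in blood cells, so the other miRNAs of a blood cell list were read beside it. Of the 5 others, miR-223-3p had 0, 0 and 1 reads, miR-451a had 0, 1 and 0, and miR-144-3p had none in any line. miR-150-5p had 24, 2 and 2 reads, and miR-486-5p had 174, 9 and 2766. Together these 5 held 12 reads in ES-2 against 797 of miR-142, and 198 and 2769 reads in C643 and Huh-7. The defining miRNAs of granulocytes and red cells, miR-223-3p, miR-451a and miR-144-3p, were thus at or near 0 in ES-2.

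miR-29b-3p, of a family known to repress mRNAs of collagens and other matrix proteins, is made from hairpins on 2 chromosomes, MIR29B1 at chr7:130877459-130877539 in an exon of LINC-PINT and MIR29B2 at chr1:207802443-207802523 in an exon of MIR29B2CHG, both on the minus strand. It had 635 reads in ES-2 (0.0382%), against 506 in C643 (0.00618%) and 17 in Huh-7 (0.000782%). This was 6.17 times the share of C643 (5.49 to 6.95) and 48.8 times that of Huh-7 (30.2 to 84.3). The chromosome 1 row held 262, 293 and 10 of these reads and the chromosome 7 row 244, 342 and 7, although the mature sequence is the same, so the rows do not tell which hairpin was used.

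The rest of the miR-29 family lay on the same side with a smaller distance to C643. miR-29a-3p, from the hairpin beside MIR29B1, held 2.56% in ES-2, against 1.09% in C643 and 0.193% in Huh-7, and miR-29c-3p had 99, 44 and 28 reads. The family sum was 1.10%, 2.60% and 0.195%, 2.37 times C643 (2.34 to 2.40) and 13.3 times Huh-7 (12.9 to 13.8). miR-29b-3p made up 1.47% of the family reads in ES-2, so the seed as a whole did not reach 4-fold against C643. Of the 5p arms, which mark the hairpins separately, miR-29b-1-5p had 2163, 1421 and 96 reads (0.0264%, 0.0854% and 0.00442%) and miR-29b-2-5p had 1, 8 and 2.

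miR-361-3p and miR-138-5p were read in C643 as well as in ES-2 and were at 0 in Huh-7. MIR361 lies at chrX:85903636-85903707 on the minus strand, in an intron of CHM, which encodes a Rab escort protein. miR-361-3p had 720 reads in ES-2 (0.0433%), against 774 in C643 (0.00946%) and none in Huh-7, 4.58 times the share of C643 (4.13 to 5.07) and at least 314-fold more than Huh-7. Its 5p arm, miR-361-5p, had 2090, 1196 and 0 reads, 2.82 times C643 (2.62 to 3.02), so both arms of this hairpin were missing from the Huh-7 reads and the 5p arm stayed under the 4-fold limit.

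miR-138-5p, known from neurons for its role at dendritic spines, is encoded by MIR138-1 at chr3:44114212-44114310 and MIR138-2 at chr16:56858518-56858601, both on the plus strand and in no other annotated gene. It had 391 reads in ES-2 (0.0235%), against 264 in C643 (0.00323%) and none in Huh-7, 7.29 times the share of C643 (6.22 to 8.55) and at least 170-fold more than Huh-7. The 3p arms differ between the hairpins: miR-138-1-3p had 33, 22 and 0 reads and miR-138-2-3p had none in any line. The reads of the arm that tells the hairpins apart thus all came from MIR138-1.

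miR-3689f, a little studied miRNA at chr9:134850742-134850807 on the minus strand, in no other annotated gene, had 1 read in C643, 183 in ES-2 (0.011%) and none in Huh-7. The ratio to C643 was 900 with a wide interval (160 to 35755), and the share was at least 79.7-fold that of Huh-7. Other miR-3689 hairpins lie within 10 kb on the same strand. miR-3689a-5p, miR-3689b-5p and miR-3689e had 108, 93 and 90 reads in ES-2 and none in the other lines, and their mature sequences are identical, so their reads cannot be told apart. With them the miR-3689 names together had 1, 479 and 0 reads, 0.0288% of ES-2 (0.0263 to 0.0315).

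Of 6 other arms of the higher members that were not members themselves, 5 had their highest share in ES-2 and 1 had no read in any line. In sequence the 7 had a median GC content of 47.8%, the same as the 191 tested miRNAs with a sequence (47.8%), and 4 of the 7 began with U, against 54.5% of the 191. Of their 8 precursors, 5 lay in a gene on the same strand and 3 in none. The precursors of all tested miRNAs were not counted, so these counts have no background share.

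The 27 miRNAs lower in ES-2 held 0.201% of its reads (0.195 to 0.208, 3347 reads), 2.31% of C643 (188844 reads) and 22.3% of Huh-7 (22.2 to 22.3, 484420 reads). miR-122-5p alone accounted for 13.3 points of the Huh-7 share, and without it the others held 9.02% there. The highest share was in Huh-7 for 22 of the 27 and in C643 for 5, and 14 had no read in ES-2.

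Not all 27 were resolved against C643. Against Huh-7, 26 lay beyond counting error, all except miR-214-3p. Against C643, 18 did, and for 9, with few or no reads in C643 as well, the difference was not detectable: miR-885-5p, miR-885-3p, miR-122-3p, miR-1269b, miR-548x-3p, miR-215-5p, miR-95-3p, miR-200a-3p and miR-618. The last 4 of these had no read in C643 either and met the rule only because 0 is at most 25% of 0. Beyond counting error against both lines were 17, and for 14 both intervals lay wholly past 4-fold.

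**Figure D2:**
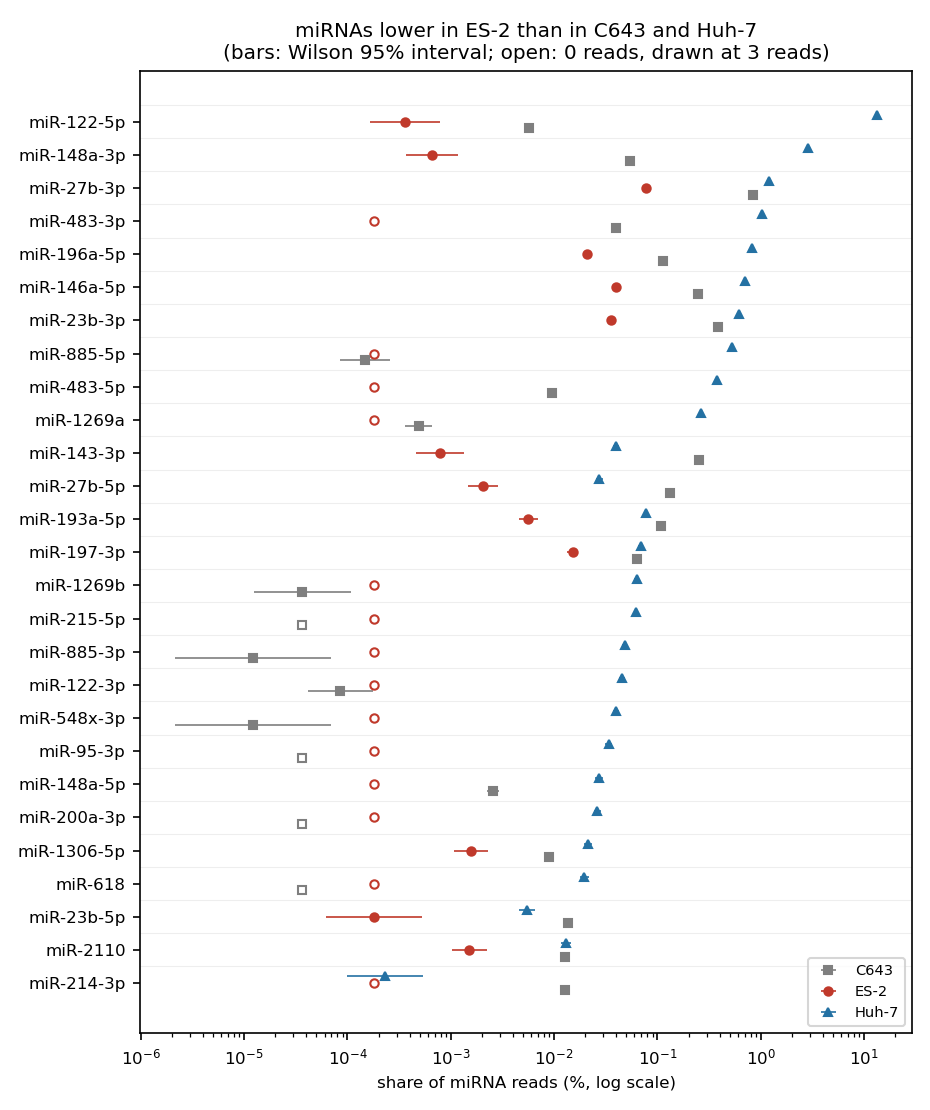
Shares of all miRNA reads (x axis, percent on a log scale) of the 27 miRNAs lower in ES-2, in the order of their highest share in another line, with bars for the Wilson 95% interval and open symbols for 0 reads, drawn at the share of 3 reads. In the upper rows ES-2 lies well to the left of both lines, whereas for miR-885-5p, miR-1269b and miR-215-5p the C643 point lies below the ES-2 point drawn at 3 reads.

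The hairpins of miR-23b and miR-27b gave 4 of the 27, and they were the only members whose precursors lay within 10 kb of one another. MIR23B at chr9:95085208-95085304 and MIR27B at chr9:95085445-95085541 lie on the plus strand in an intron of C9orf3. miR-27b-3p, known as a brake on fat cell formation, had 1282 reads in ES-2 (0.0771%), against 69029 in C643 (0.844%) and 25921 in Huh-7 (1.19%), so ES-2 was 10.9-fold below C643 (10.4 to 11.6) and 15.5-fold below Huh-7 (14.6 to 16.4). miR-23b-3p had 31759 (0.388%), 592 (0.0356%) and 13247 reads (0.609%), 10.9-fold below C643 (10.1 to 11.8) and 17.1-fold below Huh-7 (15.8 to 18.6). The distances of the 2 hairpins from ES-2 were close to each other.

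The 5p arms went the same way. miR-27b-5p had 10786, 34 and 595 reads, 64.5-fold lower in ES-2 than in C643 (46.1 to 93.2) and 13.4-fold lower than in Huh-7 (9.48 to 19.5). miR-23b-5p had 1126, 3 and 120 reads, 76.3-fold (26.0 to 370) and 30.6-fold (10.2 to 151) lower. The ratio of 3p to 5p reads was not the same in the lines: for miR-27b it was 37.7 in ES-2, against 6.40 in C643 and 43.6 in Huh-7. MIR24-1 is the next hairpin on this transcript, and its own arm, miR-24-1-5p, had 200, 0 and 32 reads.

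miR-23a, miR-27a and miR-24-2 form a paralogous cluster elsewhere in the genome, with the same seeds, and ES-2 held more of it. miR-27a-3p held 0.238% in ES-2, against 0.351% in C643 and 0.0643% in Huh-7, and miR-23a-3p held 1.89%, 1.05% and 0.366%. ES-2 was thus 1.48-fold below C643 (1.43 to 1.53) but 3.70-fold above Huh-7 (3.48 to 3.93) for miR-27a-3p. Summed over both arms, the b hairpins held 1.38%, 0.115% and 1.83% and the a hairpins 2.33%, 1.32% and 0.433%.

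Within a library, where no scaling enters, the balance of the paralogs differed between the lines. miR-27a-3p had 3.08 reads for each read of miR-27b-3p in ES-2 (2.89 to 3.29), against 0.416 in C643 (0.411 to 0.422) and 0.0539 in Huh-7 (0.0511 to 0.0569). miR-23a-3p had 29.4 for each of miR-23b-3p in ES-2 (27.1 to 32.0), 4.87 in C643 and 0.600 in Huh-7. Since these relatives differ by 1 base, the ratios rest on how reads were matched, of which no settings were given. Of the 5p arms, miR-23b-5p differs from miR-23a-5p at 7 of 22 bases. miR-23a-5p had 1162, 134 and 28 reads, against 1126, 3 and 120 of miR-23b-5p. miR-27a-5p had 6180, 434 and 51 reads, against 10786, 34 and 595 of miR-27b-5p. Whether matching affected the 3p ratios was not tested.

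By seed, therefore, the differences were smaller than for the single miRNAs. The miR-27 seed held 1.19%, 0.315% and 1.26%, 3.80-fold (3.69 to 3.90) and 3.99-fold (3.88 to 4.11) lower in ES-2, just under the 4-fold limit. The miR-23 seed held 2.28%, 1.08% and 0.975%, 2.11-fold lower than C643 and 1.11 times Huh-7 (1.09 to 1.13). miR-24-3p, which both clusters encode, held 1.23%, 0.405% and 0.462%.

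**Figure D3:**
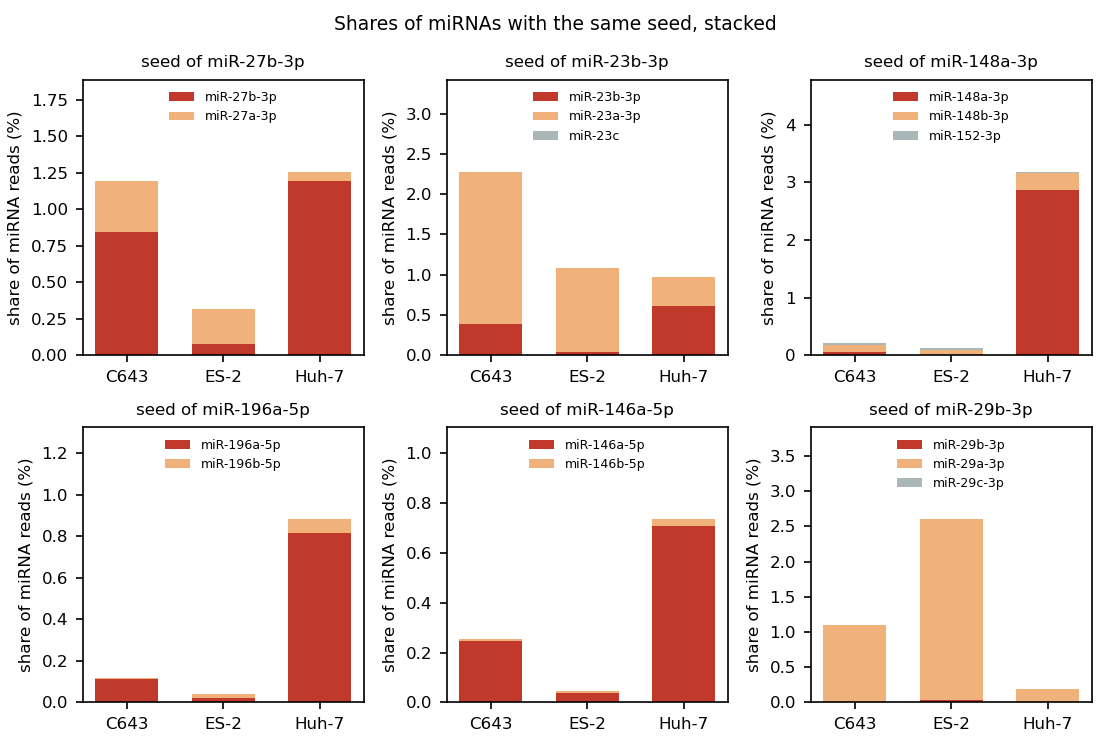
Stacked shares of all miRNA reads (y axes, percent, from 0) of the miRNAs with the seed of 6 members, for each of the 3 libraries, with the member in red and its relatives in orange and grey. In ES-2 the a paralog makes up most of the miR-27 and miR-23 seeds, and miR-29a-3p nearly all of the miR-29 seed.

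miR-148a and miR-196a also had relatives that were read in ES-2. miR-148a-3p, known to repress the DNA methyltransferase DNMT1, comes from MIR148A at chr7:25949919-25949986 on the minus strand and had 11 reads in ES-2 (0.000661%), against 4447 in C643 (0.0543%) and 62362 in Huh-7 (2.87%). ES-2 was 82.2-fold below C643 (45.9 to 165) and 4338-fold below Huh-7 (2424 to 8690). The other arm, miR-148a-5p, had 209, 0 and 591 reads. miR-148b-3p, by contrast, held 0.117%, 0.0973% and 0.298%, and with miR-152-3p the seed stood at 0.211% in C643 and 0.133% in ES-2, 1.59-fold lower (1.53 to 1.67), and was 24-fold lower than in Huh-7 (23.0 to 25.1).

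miR-196a-5p, which cleaves HOXB8 mRNA, is encoded inside the HOX clusters by MIR196A1 at chr17:48632490-48632559 (minus strand, intron of HOXB7) and MIR196A2 at chr12:53991738-53991847 (plus strand, intron of HOXC6). It had 348 reads in ES-2 (0.0209%), against 9341 in C643 (0.114%) and 17775 in Huh-7 (0.818%), 5.46-fold (4.90 to 6.09) and 39.1-fold (35.1 to 43.6) lower in ES-2. The chromosome 12 row held 5101, 201 and 9891 of the reads and the chromosome 17 row 4240, 147 and 7884. The mature sequence is the same, so these rows do not tell which hairpin was used. miR-196b-5p had 453, 307 and 1441 reads, and in ES-2 it was 3.33 times its share in C643 (2.88 to 3.86), so the relatives lay on opposite sides of C643.

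miR-146a-5p, induced by NF-kB and known to damp that pathway, was the member read in ES-2 whose whole seed, relatives included, stayed past 4-fold. MIR146A lies at chr5:160485352-160485450 on the plus strand in an exon of MIR3142HG. It had 661 reads in ES-2 (0.0397%), against 20120 in C643 (0.246%) and 15352 in Huh-7 (0.706%), 6.19-fold (5.72 to 6.69) and 17.8-fold (16.4 to 19.2) lower. With miR-146b-5p, which had 603, 120 and 629 reads, the seed was 5.39-fold (5.02 to 5.80) and 15.7-fold (14.6 to 16.8) lower. miR-155-5p, another miRNA of the immune-linked list, went the other way with 0.781% in ES-2, against 0.248% in C643 and no read in Huh-7, and the list as a whole held 0.502%, 0.828% and 0.735%.

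Of 11 seeds among the lower members that other miRNAs with reads shared, 4 met the 4-fold limit against both lines when summed, those of miR-146a-5p, miR-1269a with miR-1269b, miR-548x-3p and miR-214-3p. The last 3 seeds met it with no read in ES-2, and their 4-fold distance was not resolved: the interval of the ratio began at 2.27 for the miR-1269 seed against C643, at 0.0382 for that of miR-548x-3p against C643 and at 2.13 for that of miR-214-3p against Huh-7. Of 3 such seeds among the higher members, 2 remained past 4-fold, those of miR-142-5p and miR-3689f.

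Members known from liver came next. miR-122-5p, the leading miRNA of hepatocytes, lies at chr18:58451074-58451158 on the plus strand in an exon of MIR122HG. It had 6 reads in ES-2 (0.000361%), against 468 in C643 (0.00572%) and 288469 in Huh-7 (13.3%), 15.9-fold below C643 (7.23 to 43.4) and 36788-fold below Huh-7 (16902 to 100246). miR-122-3p had 7, 0 and 988 reads. ES-2 held the lowest share of this miRNA, but C643 too was far below Huh-7.

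miR-885-5p and miR-885-3p, from MIR885 at chr3:10394489-10394562 on the minus strand in an intron of the calcium pump gene ATP2B2, had 12, 0 and 11365 reads and 1, 0 and 1050 reads. ES-2 was at least 2899-fold and 268-fold below Huh-7 for these arms, and against C643 neither difference was detectable. miR-215-5p, at chr1:220117853-220117962 opposite IARS2, had 1349 reads in Huh-7 and none elsewhere, at least 344-fold above ES-2. Its neighbour on the same strand, miR-194-5p, had 654, 105 and 18351 reads. A locus on chromosome 11 encodes miR-194-5p too, so these reads cannot be assigned to the neighbour of MIR215. miR-192-5p, which shares the seed of miR-215-5p, had 560, 109 and 19125. Both miR-194-5p and miR-192-5p were read in ES-2 at nearly the share of C643, 0.00631% against 0.00799% and 0.00655% against 0.00684%.

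Both arms of MIR483 were absent from the ES-2 reads. The hairpin lies at chr11:2134134-2134209 on the minus strand in an intron of IGF2, which encodes a growth factor of fetal tissues. miR-483-3p had no read in ES-2, against 3264 in C643 (0.0399%) and 22452 in Huh-7 (1.03%), at least 221-fold and 5727-fold higher than in ES-2. miR-483-5p had 774 (0.00946%), 0 and 8291 reads (0.381%), at least 52.4-fold and 2115-fold higher. Of the 14 members without a read in ES-2, miR-483-3p had the highest share in either of the other lines.

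miR-1269a at chr4:66276824-66276928 and miR-1269b at chr17:12917268-12917342, the latter opposite ARHGAP44, relatives from different chromosomes, had 40, 0 and 5747 reads and 3, 0 and 1364 reads. For miR-1269a the share was at least 2.71-fold higher in C643 and at least 1466-fold higher in Huh-7 than in ES-2. miR-1269b was at least 348-fold higher in Huh-7, with no detectable difference from C643. In either case Huh-7 carried nearly all of the reads.

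Of the 5 members with their highest share in C643, miR-143-3p and miR-214-3p were on the mesenchymal list. The others were miR-27b-5p, miR-23b-5p and miR-193a-5p. miR-143-3p, abundant in smooth muscle and fibroblasts, comes from MIR143 at chr5:149428918-149429023 on the plus strand in an exon of CARMN. It had 13 reads in ES-2 (0.000782%), against 20687 in C643 (0.253%) and 866 in Huh-7 (0.0398%), 323-fold (189 to 608) and 51.0-fold (29.6 to 96.1) lower in ES-2. Of the neighbour MIR145, miR-145-5p had 155, 0 and 45 reads and miR-145-3p 145, 1 and 22, so ES-2 was lowest for both products of this transcript.

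miR-214-3p, from the opposite strand of DNM3 at chr1:172138798-172138907 in an exon of DNM3OS, had no read in ES-2, against 1050 in C643 (0.0128%) and 5 in Huh-7. C643 was at least 71.1-fold above ES-2, whereas ES-2 and Huh-7 could not be told apart by counting error. The miR-199a arms, which DNM3OS also encodes, did not share this order. miR-199a-3p, which a second locus also encodes, had 6718 reads in ES-2 (0.404%), against 25247 in C643 (0.309%) and 26 in Huh-7 (0.0012%), and miR-199a-5p had 2303, 1096 and 5. ES-2 thus lacked reads of miR-214-3p, and of miR-214-5p with 46, 0 and 0, while its share of miR-199a-3p was 1.31 times that of C643 (1.27 to 1.34). Reads of miR-199a-3p cannot be assigned to DNM3OS, since a locus on chromosome 19 encodes it too. A further name, miR-199b-3p with a locus on chromosome 9, had 12533, 3297 and 5 reads. Its sequence was not compared with that of miR-199a-3p, so whether reads were split over both names is not known here. How many reads of miR-199a-5p arose from DNM3OS was not checked.

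Among the remaining members, 3 sit in exons of protein-coding genes and were read in all lines. miR-197-3p (GNAI3, chr1:109598893-109598967) had 5139, 252 and 1497 reads, 4.14-fold (3.65 to 4.72) and 4.55-fold (3.98 to 5.22) lower in ES-2, so its lower bounds fell below 4. miR-1306-5p lies in an exon of DGCR8, which encodes a subunit of the complex that cuts miRNA hairpins, at chr22:20086058-20086142, and had 723, 26 and 462 reads, 5.65-fold and 13.6-fold lower. miR-2110 (CCDC186, chr10:114174105-114174179) had 1051, 25 and 282 reads, 8.54-fold and 8.63-fold lower.

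miR-193a-5p, at chr17:31559996-31560083 in no other annotated gene, had 94 reads in ES-2 (0.00565%), against 8807 in C643 (0.108%) and 1676 in Huh-7 (0.0771%), 19.0-fold (15.5 to 23.6) and 13.6-fold (11.1 to 17.0) lower. ES-2 lay far below both lines, and C643 held the highest share. miR-193a-3p was listed at 0 in every library, as were miR-143-5p, miR-196a-3p and miR-95-5p, so for these hairpins the arms could not be compared.

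The last 4 were read almost wholly in Huh-7. miR-200a-3p, of the family that holds cells in an epithelial state by repressing ZEB1 and ZEB2, had 0, 0 and 570 reads, miR-95-3p 0, 0 and 732, miR-618 (intron of LIN7A) 0, 0 and 426 and miR-548x-3p 1, 0 and 866. Their shares in Huh-7 were at least 109-fold to 221-fold above ES-2. On the transcript of MIR200A at chr1:1167863-1167952, miR-200b-3p had 102, 13 and 6558 reads and miR-429 had 0, 1 and 780. The rest of the family went the other way against C643. miR-200c-3p had 0, 66 and 394 reads, at least 108-fold above C643 in ES-2. miR-141-3p, which has the seed of miR-200a-3p, had 0, 7 and 4.

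Where the other arm of a lower member was no member and was read at all, it was lowest in ES-2 or tied with C643 or Huh-7 at 0. This was so for 7 of 11, with 3 lowest and 4 tied at 0, and the other 4 had no read in any line. Those lowest in ES-2 were miR-146a-3p with 27, 1 and 72 reads, miR-197-5p with 34, 0 and 8, and miR-1306-3p with 154, 7 and 152. Of the 23 precursors, 16 lay in a gene on the same strand, 2 only opposite one and 5 in none, again without a background share. The median GC content of the 24 with a sequence was 47.6%, and 14 began with U.

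**Figure D4:**
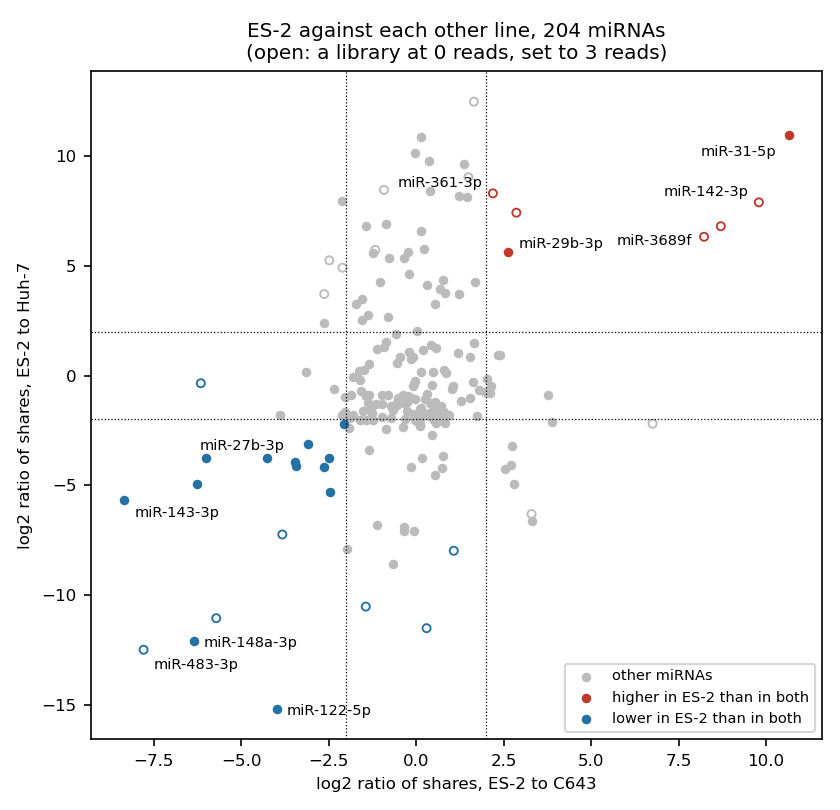
Log2 ratio of shares of ES-2 to C643 (x axis) and to Huh-7 (y axis) for 204 of the 212 miRNAs, with members in colour, dotted lines at 4-fold and open symbols where a library at 0 reads was set to 3 reads. The other 8, 7 of them lower members, are left out because ES-2 and 1 other line were at or under 3 reads. The 7 higher members lie in the upper right corner, and a lower member with no read in ES-2, such as miR-1269a, can lie right of the left dotted line because 3 reads stand in for 0.

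The members were also read against lists of miRNAs that mark cell types, to check the labels. Of 9 gonad-linked miRNAs, none had a read in ES-2 or C643 and 5 had together 23 reads in Huh-7, so the ovarian label could not be checked by them. Of 5 epithelial miRNAs 4 were read in ES-2, with 87 reads in all (0.00523%) against 102 in C643 (0.00125%) and 8306 in Huh-7 (0.382%), and 1 of the 5, miR-200a-3p, was a lower member. Of the 87 reads 66 came from miR-200c-3p, whereas all 102 in C643 came from miR-200b-3p. The 5 mesenchymal miRNAs, of which miR-143-3p and miR-214-3p were lower members, held 0.471% in ES-2, against 0.604% in C643 and 0.0436% in Huh-7, with 6718 of the 7827 reads in ES-2 from miR-199a-3p. The 4 hepatocyte miRNAs held 0.0207%, 0.0132% and 15.5%. Whether more cells of a kind or more RNA per cell lay behind a share cannot be told apart in such bulk libraries.

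Further lists held few members. The 2 muscle miRNAs read in ES-2 had 14 reads in all, against 10 reads of the list in C643 and 36 in Huh-7, and miR-126-3p was the only endothelial one read in ES-2, with 117, 11 and 1619 reads. The 4 neural miRNAs held 0.169%, 0.191% and 0.53% and no member. The HOX cluster list, with miR-196a-5p as its only member, held 1.27%, 1.36% and 1.40%, so the list as a whole did not follow miR-196a-5p. Its other miRNAs included miR-10a-5p with 1.05%, 1.03% and 0.00092% and miR-10b-5p with 0.0583%, 0.253% and 0.437%.

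Medians of the lists were read beside those of all miRNAs tested, -0.09 on the log2 scale for ES-2 to C643 (194 read in both) and -1.10 for ES-2 to Huh-7 (186). The miR-29 list stood at 1.23 and 3.73 with 3 members read in all lines. The list of miR-23, miR-27 and miR-24 stood at -1.60 and -0.19 over 5, below the background against C643 and above it against Huh-7. Of the lists without a member, let-7 held 30.1%, 20.05% and 1.39%, miR-221 with miR-222 held 4.78%, 8.15% and 0.580%, and miR-99, miR-100 and miR-125 held 6.70%, 13.2% and 2.41%. The miR-30 list held 6.85%, 7.11% and 3.45%, miR-181 held 0.349%, 0.219% and 0.606%, and the miR-183 cluster 0.273%, 0.433% and 1.70%. The list of miR-17 to miR-92a held 2.62%, 5.63% and 7.87%, and the p53-linked list had 0, 8 and 627 reads.

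Taken 1 line at a time, ES-2 was at least 4-fold above C643 in 22 of the 212 miRNAs (10.4%) and above Huh-7 in 46 (21.7%), and at least 4-fold below C643 in 34 (16.0%) and below Huh-7 in 63 (29.7%). These comparisons share the ES-2 library. Nearest inside the limit among the higher members were miR-361-3p with a weaker fold of 4.58, miR-29b-3p with 6.17 and miR-138-5p with 7.29, and nearest outside it were miR-29b-1-5p with 3.23, miR-155-5p with 3.14 and miR-361-5p with 2.82. Among the lower, miR-197-3p with 4.14, miR-196a-5p with 5.46 and miR-1306-5p with 5.65 lay inside, and miR-486-5p with 3.93, miR-1304-3p with 3.80 and miR-99b-5p with 3.70 outside.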

How the data were processed

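Small RNA of 3 established cancer cell lines was sequenced, with 1 library a line. C643 has a table of its own among those the authors deposited, and the other lines share one. Both list 2813 loci of 2588 mature miRNAs. Their deposited signal is the number of reads at a locus times a factor of the library. It goes under the name CPM, but the columns summed to 959302 (C643), 1154552 (ES-2) and 612015 (Huh-7) instead of 1000000. The submitters' processing notes name hg38, cutadapt 1.14, Bowtie2 2.3.3, SAMtools 1.5, featureCounts 1.5.3 and edgeR 3.18.1. Their roles and settings, the miRNA annotation, the treatment of reads that match several loci and any use of the random adapter bases as molecular identifiers were not given in the sources used here. Reads that are PCR copies would make the intervals too narrow.

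Each column's values above 0 were whole multiples of its smallest one for 100% of values (tolerance 0.01), so reads were recovered at 0.117, 0.694 and 0.282 units per read in C643, ES-2 and Huh-7. At these scales 100 units equal 854, 145 and 356 reads. Loci were summed by mature miRNA and divided by the column total, because the tables may have been normalized separately and a share is free of any factor between libraries. Shares carry Wilson 95% intervals and ratios exact conditional binomial intervals. A fold against 0 reads was taken against 3 reads and written as at least, which is no 95% limit. No fold was given where both libraries were at or below 3 reads. With 1 library a line no test between lines was made. A two-sided exact binomial test on the reads (Benjamini-Hochberg at 0.05), which compares libraries and not lines, served only as an alternative and was tested on simulated data.

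Precursor positions and genes around them were taken from RefSeq (GRCh38.p14) and GENCODE version 29 (GRCh38), and neighbours were counted within 10 kb on 1 strand. The members and the 21 miRNA lists were chosen with earlier results of these data known. Every member is named. The rule for values in full was the 15 leading members of each direction with their other arms, relatives of the same seed and neighbours, 3 miRNAs on each side of each limit, and listed miRNAs of 100 units or more, of which the lists without members are given as lists. Python 3.11.15 with numpy 2.4.6, pandas 2.3.3, scipy 1.17.1 and matplotlib 3.10.9 was used.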

Additional observations from a re-analysis of the deposited data

How the results depend on the processing

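No paired analysis was possible because there was a single library of each line. The count of miRNAs higher in ES-2, 7, became 16 at 2-fold, 4 at 8-fold, 14 at 10 units or more, 1 at 1000 units or more and 87 without a filter. The count lower in ES-2, 27, became 44 at 2-fold, 88 at 10 units or more, 13 at 1000 units or more and 498 without a filter. It fell to 16 on log2(value + 1) and 11 on log2(value + 10), both on the deposited scale in place of shares, 16 with 3 reads as a floor and 17 with the read test. All of these lost miR-122-3p, miR-1269b, miR-200a-3p, miR-214-3p, miR-215-5p, miR-548x-3p, miR-618, miR-885-3p, miR-885-5p and miR-95-3p, which had no read in ES-2. Also lost were miR-197-3p on log2(value + 1), miR-1269a with the floor, and miR-1269a, miR-148a-5p, miR-1306-5p, miR-197-3p, miR-2110 and miR-23b-5p on log2(value + 10), the last 4 of them read in ES-2. The 7 higher ones were kept under each of these scales, floors and tests, but this was close to fixed in advance. They reached 100 units in ES-2 only, which equals at least 145 reads there, and the deposited scale moves ES-2 up against both lines. Leaving out ties at 0 reads, chosen after the data had been seen, gave 7 and 23. Median scaling, which moves ES-2 up by 0.39 (log2) against C643 and 1.02 against Huh-7, gave 10 and 26, the gained being miR-155-5p, miR-29b-1-5p and miR-424-5p and the lost one miR-197-3p. The deposited scale moves them by 0.27 and 0.92. The mean over loci gave 7 and 28 with miR-486-5p gained. Both arms summed by name gave 6 and 23 names, with miR-361 lost and miR-708 gained among the higher. Among the lower, miR-365a and miR-365b were gained. Arms with a hairpin number in their name were not joined, so miR-29b-3p and miR-138-5p entered without their other arms. Whether they meet the rule with these arms was not tested.

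The summed shares of the higher miRNAs in C643, ES-2 and Huh-7 were 0.0267%, 0.612% and 0.00131% without miR-21-5p in the total, 0.0173%, 0.479% and 0.000533% with the mean over loci, 0.00022%, 0.334% and 9.2e-05% at 8-fold and 5.64%, 15.5% and 0.342% at 2-fold. For the lower ones they were 3.23%, 0.280% and 33.4% without miR-21-5p, 2.71%, 0.224% and 24.1% with the mean over loci, 1.88%, 0.124% and 20.7% at 8-fold and 5.12%, 1.16% and 25.7% at 2-fold. ES-2 was the shallowest library, and its depth limits the comparison with C643, in which 9 of the 27 lower members were not resolved. These 9 had at most 12 reads in C643 as well. For the 4 with no read in C643, more reads in ES-2 could not place ES-2 lower.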

Other observations

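At 10 units or more, 423 miRNAs could be compared, and beyond the members 7 met the rule for higher shares in ES-2 and 61 that for lower shares. Those named here were picked out once the values were known. Both arms of MIR708 were among the 7, with 126 reads in ES-2 (0.00758%), against 1 in C643 and 0 in Huh-7 for miR-708-5p and 70 (0.00421%), 1 and 0 reads for miR-708-3p. The others were miR-31-3p, the other arm of miR-31-5p, miR-3689a-5p, miR-3689b-5p and miR-3689e, and miR-199b-5p with 67 reads in ES-2 (0.00403%), against 44 in C643 (0.000538%) and 18 in Huh-7 (0.000828%).

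Of the 61 in the lower direction, the 2 that met the rule at 100 units once both arms were summed are given. miR-365a-3p had 13 reads in ES-2, against 455 in C643 and 333 in Huh-7, and miR-365b-3p had 21, against 459 and 303. The sequences of both were not compared, so whether their reads can be told apart is not known here. Each name by itself stayed below 100 units and met the rule at 10 units. Their shares in ES-2 were 0.000782% and 0.00126%, against 0.00556% and 0.00561% in C643 and 0.0153% and 0.0139% in Huh-7.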
